A study of Mus musculus with 18 samples.

Results

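3T3-L1 cells are a mouse preadipocyte line that stops dividing at confluence and becomes fat cells after hormonal induction. WT cells of this line at 20 hr after induction were set against WT cells at 0 hr, before induction, with 3 arrays in each group, which are 6 of the 18 arrays in the series. These arrays were chosen by their titles, and no measured value entered the choice. The other 12 arrays are WT cells at 40 hr and cells with a short hairpin RNA against SIRT6 (SIRT6 KD cells) at 0, 20 and 40 hr, again with 3 arrays in each group. The sample labels give the genotype and the time point, but describe mice and an inhibitor and carry no unit of time. The cells, the hairpin and the hours are therefore those of the paper's methods. WT stands in the paper for cells without knockdown, whose infection with a control hairpin is stated for its other experiments and not for the arrays. Induction is described there as isobutylmethylxanthine (IBMX), dexamethasone and insulin in medium with serum, given after the cells had reached confluence. Each group is thus a culture of 1 cell line, and the agents were given together. The paper describes its cell culture work as done in biological replicates, but the labels do not say whether these 3 arrays were separate cultures. The p values therefore rest on the spread between arrays within a group, pooled over all 18 arrays, which may not be the spread between cultures. No uninduced cells at 20 hr were among the samples, so the agents, the fresh medium with serum and the time in culture cannot be told apart.

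Confluent 3T3-L1 cultures divide again for a short time once the hormones are added. This clonal expansion comes before the genes of the fat cell are switched on. IBMX blocks the phosphodiesterases that break down cyclic AMP, dexamethasone activates the glucocorticoid receptor, and insulin acts through its own receptor and, at high doses, through that of insulin-like growth factor. C/EBPβ and C/EBPδ are known as early factors of the program, and PPARγ and C/EBPα as the later ones that drive genes of lipid storage.

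The cells' RNA was hybridised to Affymetrix Mouse Gene 2.0 ST arrays, and the signals were deposited on a log2 scale after RMA, a method that gives all arrays one distribution. A gene is given here by the probe set of its transcript (transcript cluster) with the highest mean over all arrays, and 22180 genes had a cluster with exactly 1 gene symbol. As a guide to background, 95 percent of 1400 clusters of olfactory and vomeronasal receptors averaged 6.55 or less (the receptor level), and 11860 genes (53.5%) lay above it. Array medians lay between 6.65 and 6.75. Within the WT 20 hr arrays every pair correlated at 0.995 or more across clusters, and within the WT 0 hr arrays at 0.9922 or more. WT 0 hr replicate 3 stood apart, since it correlated on average more with the SIRT6 KD arrays at 0 hr (0.9946) than with its own group (0.993), and so did the 3 SIRT6 KD arrays at 20 hr with the WT arrays of that time (0.993 to 0.994, against 0.9913 to 0.9927 with their own group) and SIRT6 KD 40 hr replicate 1 with the WT arrays at 40 hr (0.9938, against 0.993). Sirt6, the target of the hairpin, read 6.73, 6.98 and 6.97 in SIRT6 KD cells and 6.96, 7.34 and 7.28 in WT cells at 20 hr, so 1 WT array lay within the SIRT6 KD range.

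Markers of fibroblasts were present. Of 14 fibroblast and preadipocyte markers with a cluster, 12 were above the receptor level, whereas 1 of 8 endothelial, 2 of 7 epithelial, 5 of 8 skeletal muscle, 6 of 7 neural and 4 of 10 macrophage and leukocyte markers were. Of the markers of other cell types, only Lyz2 and the neural gene Map2 (log2 fold change −0.98) were called. Ptprc, Adgre1 and Csf1r, which define leukocytes and macrophages, were below the receptor level. Lyz2, the gene of lysozyme, fell to 6.58, 6.89 and 6.75 at 20 hr, against 9.15, 8.86 and 8.80 at 0 hr (log2 fold change −2.20, adjusted p = 2.11e-10). The summed linear signal of the macrophage list ranged over 862 to 928 at 20 hr and 1220 to 1350 at 0 hr, and that of the fibroblast list over 21500 to 22100 at 20 hr and 27000 to 27900 at 0 hr. The part of these shifts in the results that follow was not tested. In RNA from whole cultures, fewer cells of a type and less RNA per cell cannot be told apart.

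A large set of genes differed between 20 hr and 0 hr. A gene was called when its Benjamini-Hochberg adjusted p in limma was under 0.05 and its fold above 1.5. By this rule 1940 of 22180 genes (8.75%) were called, of which 1078 (4.86%) were higher and 862 (3.89%) lower at 20 hr. Of the 11860 genes above the receptor level, 1029 were called higher and 683 lower, 14.4% in all. Without the fold limit 5704 genes (25.7%) passed. The median log2 fold change over all genes was 0.002, and its median standard error 0.102. Most calls were moderate in size, as 336 genes rose and 260 fell by more than 2-fold, 27 rose and 26 fell by more than 4-fold, and 9 rose and 5 fell by more than 8-fold. The groups of arrays did not overlap for 1937 of the 1940 calls, against 38.1% of all genes (20.4% higher and 17.7% lower at 20 hr). The first principal component of the 6 arrays held 73.2% of their variance and separated 20 hr (scores 27.6 to 29.8) from 0 hr (−29.9 to −27.8). The second held 9.51% and spread the 0 hr arrays, with replicate 1 at 16.7 and replicate 3 at −19.2. Without WT 0 hr replicate 3 the count was 1992, with 1171 higher and 821 lower. The direction of the majority rested on the scaling, since cyclic loess gave 914 higher and 955 lower, and centring each array on its median gave 1267 and 731.

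**Figure D1:**
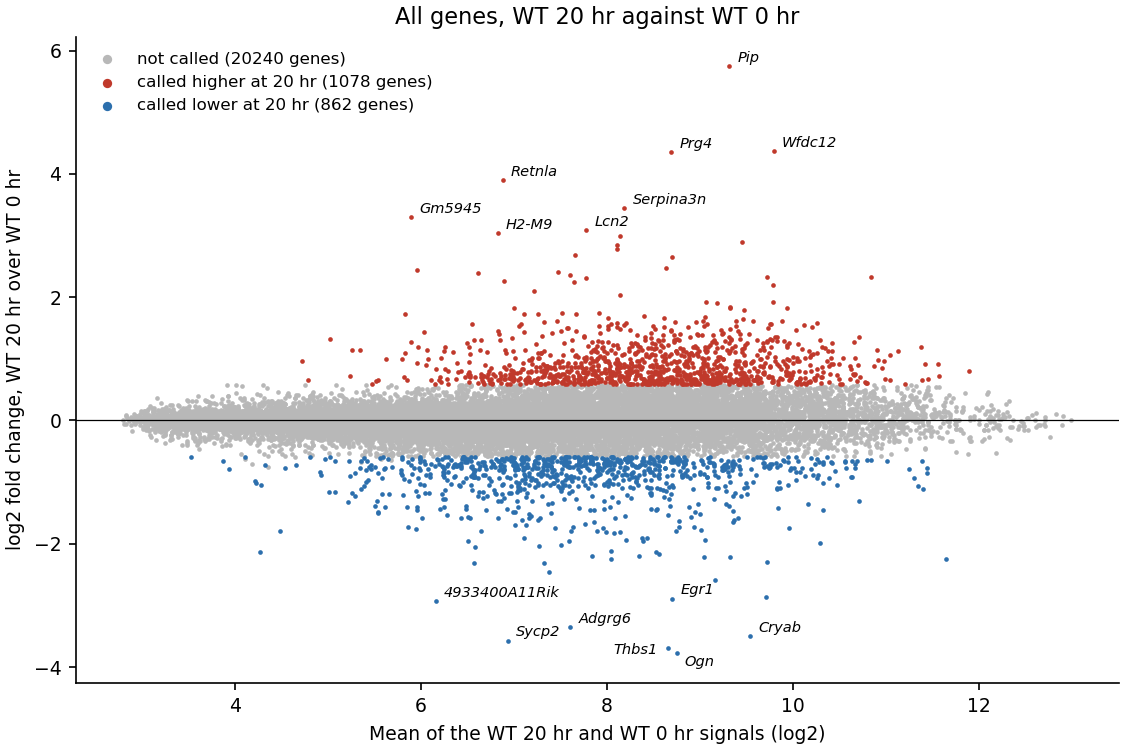
Log2 fold change of every gene (vertical axis, WT 20 hr over WT 0 hr) against the mean log2 signal of both groups (horizontal axis), each point 1 gene. The 1078 genes called higher (red) and 862 called lower (blue) lie beyond a fold of 1.5, with Pip at 5.75 and Ogn at −3.78 as the extremes.

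Pip, a secreted glycoprotein known as prolactin-induced protein, read 12.17, 12.17 and 12.22 at 20 hr, against 6.33, 6.09 and 6.89 at 0 hr, the largest change of all genes (log2 fold change 5.75 ± 0.143 (SE), 53.8-fold, adjusted p = 1.14e-15). Its signal at 0 hr was near the receptor level and at 20 hr among the brighter ones of the array. Wfdc12, of a family of small protease inhibitors, read 12.02, 11.92 and 11.99 at 20 hr and 7.70, 7.46 and 7.67 at 0 hr (20.6-fold). Prg4, the gene of the joint lubricant lubricin, read 10.95, 10.87 and 10.79 at 20 hr and 6.48, 6.58 and 6.47 at 0 hr (also 20.6-fold). For both genes the arrays of each group lay within 0.24 log2 units of each other.

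Retnla, a secreted relative of the adipokine resistin, had 8.71, 8.86 and 8.91 at 20 hr and 4.96, 5.09 and 4.74 at 0 hr, a rise of 3.90. Resistin itself (Retn) had a log2 fold change of 0.56 and was not called. Serpina3n, an inhibitor of serine proteases, had 9.83, 10.04 and 9.86 at 20 hr and 6.55, 6.34 and 6.53 at 0 hr, a rise of 3.44. Lcn2, a lipocalin that binds bacterial siderophores, had 9.34, 9.35 and 9.26 at 20 hr and 6.44, 6.28 and 5.96 at 0 hr, a rise of 3.09. These 3 genes were at or below the receptor level of 6.55 on every 0 hr array and well above it on every 20 hr array.

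The other genes among the 15 largest rises were more varied. Enzymes among them were Gda, a guanine deaminase (3.0), Gfpt2, which starts hexosamine synthesis (2.68), and Glul, the glutamine synthetase (2.66). H2-M9, a non-classical histocompatibility gene, rose by 3.04, the sprouty family member Spry3 by 2.90, the keratin gene Krt15 by 2.78 and Pi15, a secreted peptidase inhibitor, by 2.47. Gm5945 (3.30) and 2610528A11Rik (2.85) are known here by their symbols only. The 0 hr arrays spread widely for some of them, with Glul at 6.81, 7.53 and 7.79 and 2610528A11Rik at 7.28, 6.37 and 6.39, but all 20 hr arrays lay above them, at 9.48 or more.

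Ogn (osteoglycin), a small leucine-rich proteoglycan, read 6.94, 6.78 and 6.86 at 20 hr and 10.63, 10.59 and 10.72 at 0 hr, the largest fall (log2 fold change −3.78 ± 0.180 (SE), 13.8-fold, adjusted p = 1.33e-11). Thbs1, the matricellular protein thrombospondin 1, read 6.76, 6.61 and 7.04 at 20 hr and 10.45, 10.54 and 10.49 at 0 hr (12.9-fold). Both genes were thus bright before induction and near the receptor level at 20 hr. Prelp, another leucine-rich proteoglycan, fell by 2.59, and the matricellular gene Ccn1 by 2.30.

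Other falls concerned stress, signalling and structural genes. Cryab, a small heat shock protein that holds unfolded proteins, had 7.85, 7.82 and 7.71 at 20 hr, against 11.36, 11.16 and 11.36 at 0 hr, a fall of 11.3-fold. Adgrg6, an adhesion G protein-coupled receptor, had 5.84, 5.97 and 5.98 at 20 hr, against 9.13, 9.36 and 9.34 at 0 hr, and was thus below the receptor level on all 20 hr arrays. Egr1, an immediate early transcription factor, had 7.29, 7.33 and 7.17 at 20 hr, against 10.05, 10.25 and 10.15 at 0 hr. Sycp2, a part of the synaptonemal complex of meiosis, fell by 3.57, and Syne1, which links the nucleus to the cytoskeleton, by 2.86. The value of Syne1 is that of 1 of 59 clusters with its symbol. Akr1c14, an aldo-keto reductase that acts on steroids, fell by 2.31.

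**Figure D2:**
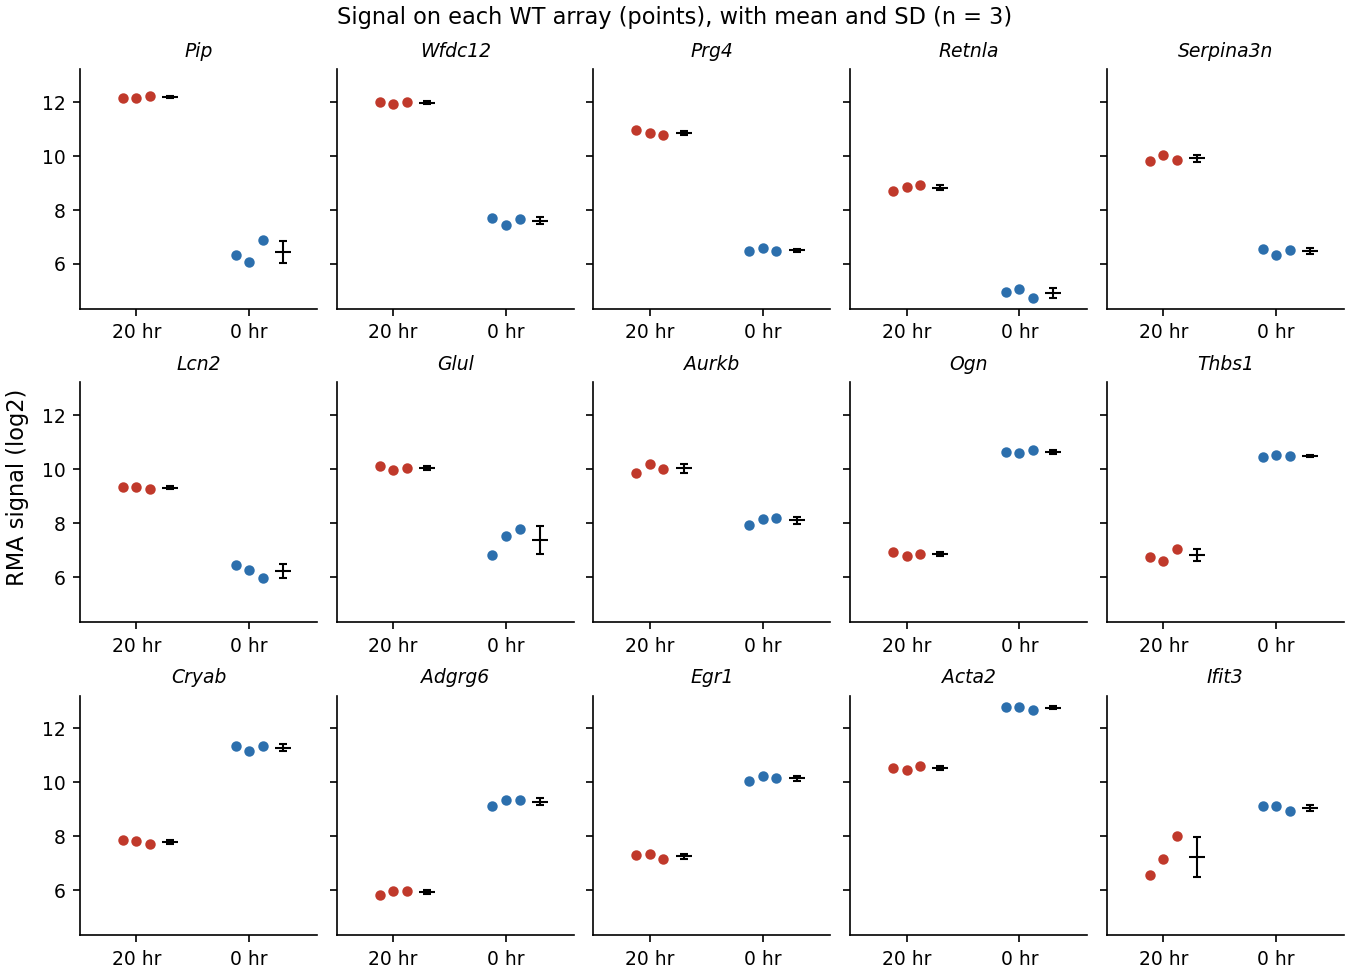
Log2 RMA signal (vertical axis) of 15 genes on each WT array (points), 20 hr left of 0 hr, with the mean and SD of the 3 arrays in black. Groups do not overlap in any panel. The arrays of one time spread most for Ifit3 at 20 hr (SD 0.732), Glul at 0 hr (SD 0.508) and Pip at 0 hr (SD 0.409).

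The cell cycle genes moved almost as one body. Of 53 genes of mitosis and the G2 phase with a cluster, 52 rose and none fell at 20 hr (background 4.86% higher and 3.89% lower), and their median log2 fold change was 1.20, against 0.002 over all genes. Of 43 genes of DNA replication and nucleotide synthesis, 38 rose and none fell (median 0.94). Every member of both lists had a log2 fold change above 0, and the smallest were 0.49 (Fzr1, an activator of the anaphase-promoting complex) and 0.41 (Fen1, a flap endonuclease). All 43 replication genes and 52 of 53 mitosis genes were above the receptor level.

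Within mitosis, the largest rises were those of Aurkb, Birc5, Aurka and Kif2c. Aurkb, the kinase of the chromosomal passenger complex, read 9.85, 10.21 and 10.02 at 20 hr and 7.94, 8.15 and 8.20 at 0 hr (3.80-fold, adjusted p = 1.20e-10). Its partners Birc5 (survivin) and Incenp rose by 1.56 and 1.29, and the related kinase Aurka by 1.54. Among motors, Kif2c rose by 1.54 and Kif11 by 1.25, and among checkpoint genes Bub1 by 1.46, Ttk by 1.35 and Mad2l1 by 1.12. Cdk1, the kinase that drives entry into mitosis, read 9.98, 10.04 and 9.79 at 20 hr and 8.57, 8.81 and 8.90 at 0 hr (2.26-fold). Its cyclin Ccnb2 rose by 1.08, and its activating phosphatase Cdc25c by 1.28. Ccna2, the cyclin A gene, changed less, with 10.55, 10.35 and 10.41 at 20 hr and 9.78, 9.79 and 9.94 at 0 hr. Its 1.52-fold rise was just past the fold limit and was no longer called under cyclic loess (0.50) or without WT 20 hr replicate 1 (0.54), WT 0 hr replicate 1 (0.57) or WT 0 hr replicate 2 (0.58).

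Within replication, the members rose along the whole path. The licensing factor Cdc6 rose by 1.21, Mcm10 by 1.11, and the helicase subunits Mcm2 to Mcm7 by 0.74 to 1.30. Mcm5 read 9.49, 9.60 and 9.57 at 20 hr, against 8.29, 8.31 and 8.43 at 0 hr. The polymerase subunits Pole and Prim1 rose by 1.24 and 1.18, the ribonucleotide reductase subunits Rrm2 and Rrm1 by 1.57 and 1.13, and the histone chaperone Chaf1a by 1.45. The largest rise was that of the exonuclease Exo1, with 9.20, 9.24 and 9.32 at 20 hr and 7.58, 7.35 and 7.74 at 0 hr (3.23-fold). The sliding clamp Pcna, the factor Cdt1 and 3 others stayed below the fold limit at 0.41 to 0.50. Of 12 replication-dependent histone genes, 7 rose and none fell, among them the linker histone gene H1f5 (2.31) and H2ac15 (1.75). The list held 28 such genes, of which only these 12 had a cluster and 6 of them were above the receptor level. The histone genes that carry no polyadenylated tail are thus thinly measured. With only clusters above the receptor level tested, 3 of those 6 were called and the rest of the 12 were not tested.

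The regulators of the G1 to S transition were less uniform, with 7 of 29 higher and 2 lower (median 0.27). The rises were those of the repressor E2F factors E2f8 (1.35) and E2f7 (0.78), the E2F partner Tfdp1 (0.92), the pocket protein gene Rbl1 (1.13), Myc (1.24), the inhibitor Cdkn2d (0.85) and Skp2 (0.87), the ubiquitin ligase subunit that targets p27. The 2 falls were those of D-type cyclins, with Ccnd1 at 8.85, 8.97 and 8.88 at 20 hr and 9.54, 9.74 and 9.59 at 0 hr, and Ccnd2 at −0.66. Cdkn1b, the gene of p27 itself, had 9.21, 9.08 and 9.12 at 20 hr and 8.88, 8.98 and 9.0 at 0 hr (log2 fold change 0.19, adjusted p = 0.0979). Cyclin E1 (Ccne1, 0.37) and Cdk2 (0.47) passed the adjusted p but not the fold limit, and E2f1 had 0.12.

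Promoters of these genes were read from the RefSeq table of GRCm38.p6, as 250 bases before each start, and 16990 of the 22180 genes had one. Several known cell cycle elements were searched on both strands: E2F (TTTGGCGC, TTTCCCGC, TTTGCCGC or TTTCGCGC), the cell cycle genes homology region or CHR (TTTGAA or TTCGAA) and the CCAAT box (CCAAT). The promoters of Cdk1 and Mcm5 are shown because they hold these elements and because both genes rose. Each gives the last 170 bases before the start, 5′ to 3′ on the strand of the gene, with the matches in capitals.
Cdk1, chr10:69352913-69353082, minus strand: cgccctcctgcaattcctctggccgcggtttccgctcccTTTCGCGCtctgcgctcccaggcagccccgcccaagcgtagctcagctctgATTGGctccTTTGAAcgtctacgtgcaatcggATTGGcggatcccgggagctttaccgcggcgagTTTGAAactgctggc
Mcm5, chr8:75109339-75109508, plus strand: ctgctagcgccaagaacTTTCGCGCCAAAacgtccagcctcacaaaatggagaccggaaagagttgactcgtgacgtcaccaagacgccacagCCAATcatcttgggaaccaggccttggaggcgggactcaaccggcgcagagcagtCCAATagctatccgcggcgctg

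Cdk1 holds 1 E2F match, 2 CHR matches and 2 CCAAT boxes on the opposite strand (ATTGG), and Mcm5 holds 2 overlapping E2F matches and 2 CCAAT boxes. Over whole groups, an E2F match stood in 25% of 44 promoters of the replication list and 6.25% of 48 of the mitosis list, against 1.86% of all 32851 promoters. The share was 30% of 30 promoters in the list of G1 to S regulators, most of which were not called. Among the 20611 promoters of genes measured here, 2.35% held E2F, 15.2% CHR and 34.8% CCAAT. A CHR match stood in 37.5% of the mitosis promoters and 18.2% of the replication promoters, against 17.1% of all. A CCAAT box stood in 75% of the mitosis promoters and 61.4% of the replication promoters, against 33.8% of all. Among promoters of all genes called higher, 6.55% held E2F, 15.6% CHR and 42.3% CCAAT, and among those called lower 0.627%, 13.4% and 35.8%. Elements of the glucocorticoid, cyclic AMP and sterol responses had few matches in their lists. The glucocorticoid element stood in 2 of 32 promoters of glucocorticoid targets (6.25%, against 0.387% of all). The sterol element (TCACNCCAC) stood in 1 of 20 of the cholesterol list (5%, against 1.05% of all). Both shares are above that of all promoters but rest on 2 and 1 promoters. The cyclic AMP element (TGACGTCA) stood in 0 of 28 of the cyclic AMP list (1.55% of all). Outside that list it stood in 3.03% of promoters of genes called higher and 0.877% of those called lower. Among promoters of genes measured it stood in 2%. The Mcm5 promoter above holds it too, in lower case, since capitals there mark only the cell cycle elements. The CCAAT box stood in 75% of the cholesterol promoters as well, a list with no rises. A match is a description of the sequence and no evidence of binding.

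The cell cycle lists were lower again at 40 hr. In the comparison of WT 40 hr with WT 20 hr, which shares the 20 hr arrays with the one above and called 708 genes (3.19%), 51 of 53 mitosis genes (median −1.59) and 36 of 43 replication genes (median −0.85) were lower at 40 hr, while 2.25% of all genes were. Aurkb averaged 8.10 at 0 hr, 10.03 at 20 hr and 8.13 at 40 hr. Mki67, a marker of dividing cells, averaged 10.10, 10.84 and 9.14 at those times, and Cdc25c 8.5, 9.77 and 7.76. The median difference of the mitosis list between 40 hr and 0 hr was −0.34 and that of the replication list 0.08 (no test).

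Of 39 genes of ribosome biogenesis, 26 rose and none fell at 20 hr (median 0.66). Rrp1b, a nucleolar protein, had 8.92, 8.87 and 8.88 at 20 hr and 7.36, 7.26 and 7.60 at 0 hr (2.80-fold). The nucleolar helicase gene Ddx21 rose by 1.32, Noc4l by 1.30, the pseudouridine synthase gene Dkc1 by 1.18 and Polr1b, a subunit of RNA polymerase I, by 1.10. Npm1, the abundant nucleolar chaperone, stood at 12.60 at both times (log2 fold change 0.00). At 40 hr against 20 hr none of the 39 was called (median 0.02). The 28 cytosolic ribosomal protein genes were not called in either direction (median 0.12, range −0.10 to 0.58), but 1 was called higher when WT 0 hr replicate 2, WT 0 hr replicate 3 or WT 20 hr replicate 3 was left out.

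Of 25 known targets of glucocorticoids, 12 rose, none fell and 13 were not called (median 0.58, background 4.86% higher). Besides Lcn2 and Glul, these were led by the acute phase gene Saa3 (2.39) and by Rgs2, a brake on G protein signalling, which read 12.05, 12.03 and 11.94 at 20 hr and 9.48, 9.74 and 9.80 at 0 hr (5.04-fold). The receptor co-chaperone Fkbp5 read 8.28, 8.17 and 8.36 at 20 hr and 6.75, 6.51 and 6.71 at 0 hr (3.05-fold). The transcription factor Zbtb16 rose by 1.73, the metallothioneins Mt2 and Mt1 by 1.28 and 0.93, and the phosphatase Dusp1 by 0.66. Other known targets did not pass, such as Sgk1 (0.14), Nfkbia (0.15) and Tsc22d3 (0.55). At 40 hr against 20 hr 7 of the 25 were higher still, Fkbp5 (0.74) and Zbtb16 (0.74) among them.

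Of 23 genes that respond to cyclic AMP or break it down, 9 rose and 5 fell (median 0.41). The rises held 5 of the 8 phosphodiesterase genes of this list that had a cluster, namely Pde7b (1.43), Pde10a (1.42), Pde3b (1.13), Pde1a (1.13) and Pde4b (1.07). Phosphodiesterase genes outside the list were not counted. Pde10a had 8.12, 8.17 and 8.10 at 20 hr, against 6.70, 6.65 and 6.77 at 0 hr. Further rises were those of the orphan receptors Nr4a1 and Nr4a2 (0.92 and 0.81) and the kinases Sik2 and Sik1. The falls were led by Akap12, a scaffold for protein kinase A, with 7.84, 7.95 and 8.01 at 20 hr and 10.04, 10.21 and 10.22 at 0 hr (4.67-fold), and included the kinase subunit Prkar2b (−0.83) and the coregulator Cited2 (−1.08).

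Insulin and growth factor genes changed in both directions, 4 of 37 higher and 6 lower (median 0.05). Igf1, which encodes the growth factor, had 7.43, 7.47 and 7.36 at 20 hr and 9.29, 9.33 and 9.38 at 0 hr (3.77-fold lower, adjusted p = 3.79e-12). Irs1, the docking protein of the insulin and IGF receptors, had 7.37, 7.40 and 7.68 at 20 hr and 9.12, 9.64 and 9.40 at 0 hr (3.74-fold lower), while its relative Irs2 rose by 0.81. The receptor gene Pdgfrb fell by 1.62, and hepatocyte growth factor (Hgf) rose by 1.14. At 40 hr against 20 hr, Igf1 (1.04) and Irs1 (0.77) were higher again.

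**Figure D3:**
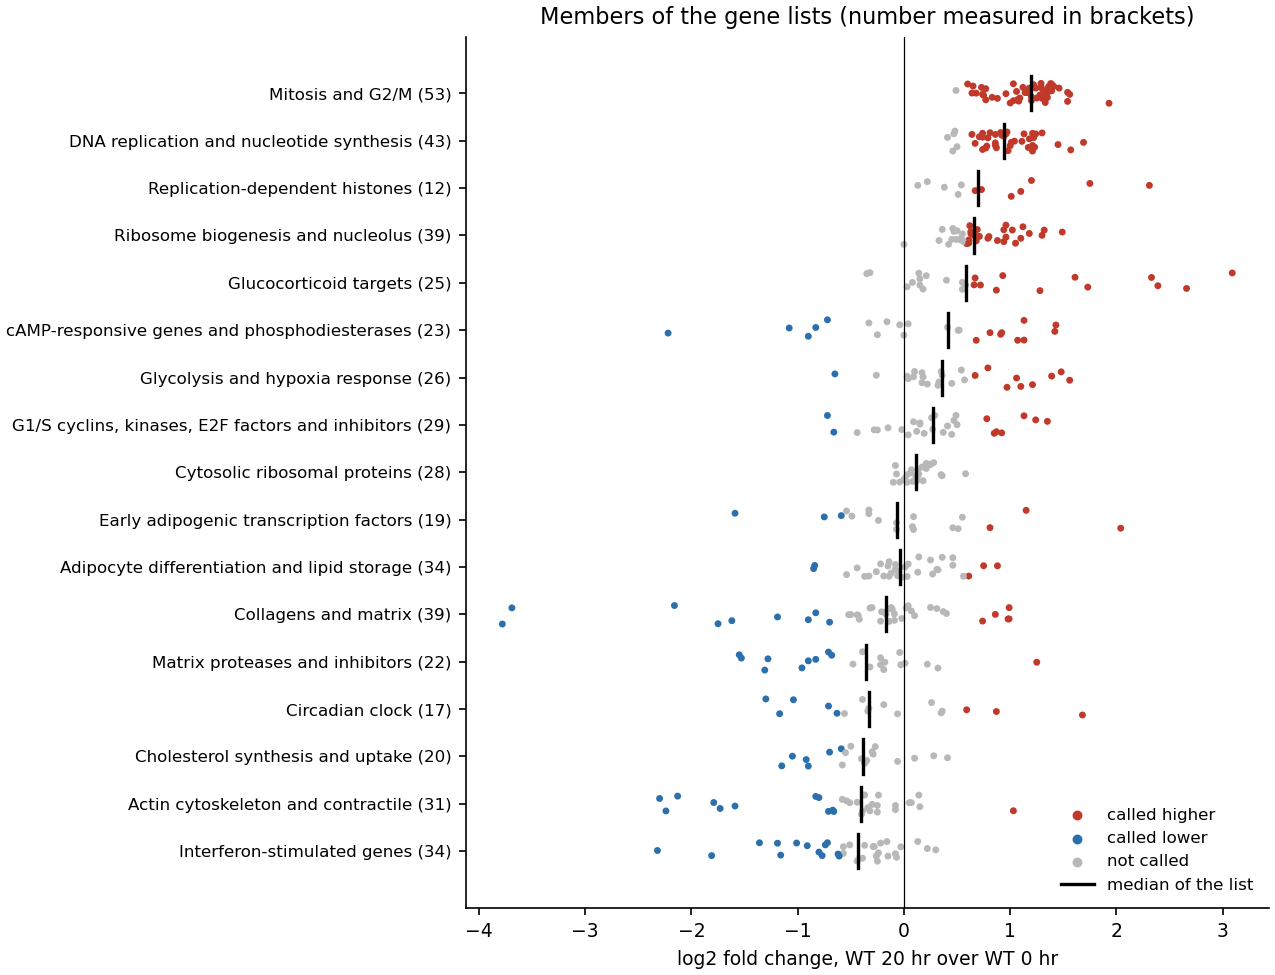
Log2 fold change of WT 20 hr over WT 0 hr (horizontal axis) for the members of 17 gene lists (rows, with the number of genes measured), each point 1 gene, red where called higher, blue where called lower, grey where not called, and a black bar at the median. The lists of mitosis and DNA replication lie wholly right of 0 and the actin, interferon and cholesterol lists mostly left of it.

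The factors of the adipogenic program split. Of 19 early factors, 3 rose and 3 fell (median −0.07). Klf5 rose most, with 9.20, 9.12 and 9.15 at 20 hr and 7.09, 7.08 and 7.20 at 0 hr (4.11-fold). Cebpb rose by 0.81 and Fosl2, an AP-1 member, by 1.15, whereas Cebpd passed the adjusted p (0.00276) at 0.46, below the fold limit. Egr2 (Krox20) fell, with 7.16, 7.53 and 7.18 at 20 hr and 8.77, 9.02 and 8.84 at 0 hr, and so did Klf6 (−0.75) and Ebf2 (−0.59). Klf4 had −0.24 (adjusted p = 0.160). Of 23 AP-1 and immediate early genes, 3 rose and 7 fell, the falls being those of Egr1, Egr2, Fos (−0.90), Ier2 (−1.05), Klf2, Dusp5 and Dusp6.

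Of 34 genes of the mature fat cell, 3 rose (8.82%, against 4.86% of all genes) and 2 fell (5.88%, against 3.89%), with a median of −0.03. Of the 34, 25 were above the receptor level, where 14.4% of genes were called in either direction. Pparg read 9.52, 9.53 and 9.54 at 20 hr and 9.64, 9.69 and 9.70 at 0 hr (log2 fold change −0.14, adjusted p = 0.162), and Cebpa and Adipoq had −0.33 and −0.15 with overlapping or nearly overlapping arrays. Fabp4, the fatty acid carrier aP2, had 0.27 (adjusted p = 0.0303). The rises were those of the adiponectin receptor Adipor2 (0.88), Dgat2, which makes triglyceride (0.75), and the desaturase Scd1 (0.61). The falls were those of the lipid droplet coats Plin2 (−0.85) and Plin4 (−0.84). At 40 hr against 20 hr 17 of the 34 were higher (0.947% of all genes were) and none lower (median 0.60), among them Pparg (1.08), Fabp4 (1.18), Adipoq (0.97) and Cebpa (0.74).

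**Figure D4:**
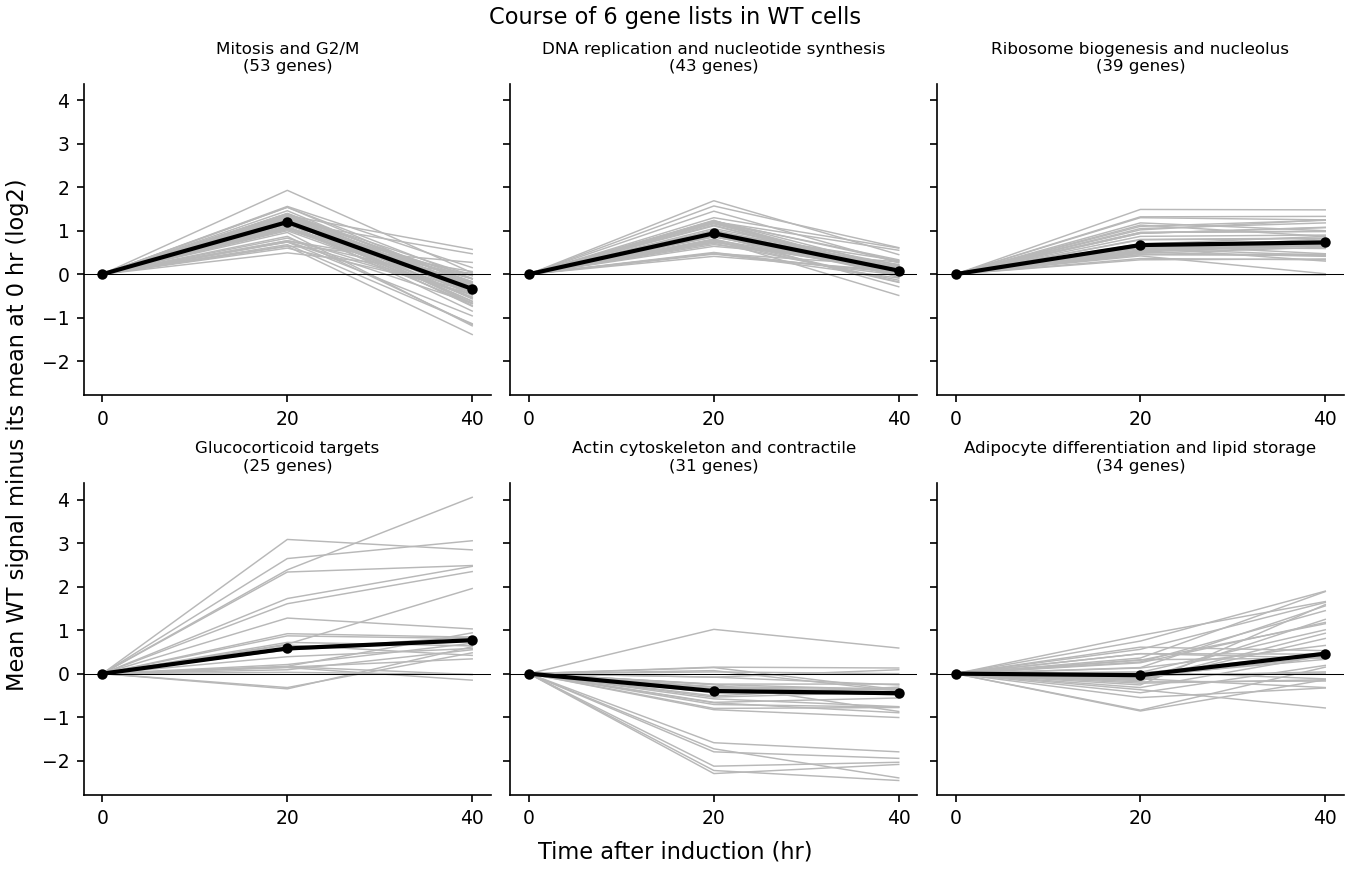
Mean WT log2 signal at 0, 20 and 40 hr minus the mean at 0 hr (vertical axis) against hours after induction (horizontal axis) for 6 gene lists, grey lines single genes and the black line their median. The mitosis and replication lists peak at 20 hr (medians 1.20 and 0.94), the ribosome biogenesis list stays up, and the adipocyte list is near 0 at 20 hr and above it at 40 hr.

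Among genes of energy metabolism, 9 of 26 glycolysis and hypoxia genes rose and 1, the vasodilator peptide gene Adm (−0.65), fell (median 0.35), Adm being uncalled without WT 0 hr replicate 2. Hk2, a hexokinase, had 8.78, 8.84 and 8.88 at 20 hr and 7.36, 7.37 and 7.08 at 0 hr (2.95-fold). Bnip3, which marks mitochondria for removal, rose by 1.48, the lactate carrier gene Slc16a1 by 1.21 and the phosphofructokinase gene Pfkl by 1.06. Of 28 genes of oxidative phosphorylation, only Ndufa11 was called (0.76), with 2 called without WT 20 hr replicate 2 and 3 with each array centred on its median, but all 28 had values above 0 (median 0.18). Of 20 genes of cholesterol synthesis and uptake, none rose and 6 fell (median −0.39), namely Msmo1 (−1.15), Insig1 (−1.05), Hmgcs1 (−0.92), Fdps (−0.90), Sc5d (−0.70) and Tm7sf2 (−0.59). Hmgcs1, an early enzyme of the pathway, read 10.10, 10.23 and 10.19 at 20 hr and 11.09, 11.03 and 11.17 at 0 hr.

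Of 31 actin and contractile genes, 11 fell and 1, the integrin gene Itga5 (1.03), rose, while 19 were not called (median −0.40, background 3.89% lower). Acta2, the smooth muscle actin gene, read 10.53, 10.46 and 10.59 at 20 hr and 12.79, 12.80 and 12.70 at 0 hr (4.71-fold, adjusted p = 2.16e-13). Myl9, a myosin light chain, read 7.52, 7.37 and 7.49 at 20 hr and 9.56, 9.67 and 9.55 at 0 hr (4.38-fold). The calponin gene Cnn2 read 7.77, 7.93 and 7.83 at 20 hr and 9.59, 9.67 and 9.65 at 0 hr (3.47-fold). Tropomyosin (Tpm1) fell by 1.59 and Actg2 by 1.73, whereas cytoplasmic actin (Actb) had −0.08 and the regulator Srf −0.34. The CArG box, the binding element of serum response factor, stood in 15.6% of 32 promoters of this list, against 1.47% of all promoters and 2.26% of those of genes called lower. It is shown in capitals in the 170 bases before the start of Cnn2, on the strand of the gene.
Cnn2, chr10:79988430-79988599, plus strand: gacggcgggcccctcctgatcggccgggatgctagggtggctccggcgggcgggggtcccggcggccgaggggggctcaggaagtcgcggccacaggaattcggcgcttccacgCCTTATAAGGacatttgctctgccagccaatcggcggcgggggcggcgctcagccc

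Matrix genes moved in both directions, more of them down. Of 39 collagen and matrix genes, 5 rose and 9 fell (median −0.17). Besides Ogn and Thbs1, Thbs2 fell to 7.44, 7.56 and 7.47 at 20 hr, against 9.63, 9.62 and 9.68 at 0 hr (4.46-fold), and fibromodulin (Fmod), Col8a1 and tenascin C (Tnc) fell by 1.75, 1.62 and 1.19. The fibrillar collagen gene Col1a1 fell by 0.83 and Col3a1 had −0.42. The basement membrane collagens went the other way, with Col4a1 at 9.54, 9.57 and 9.52 at 20 hr and 8.57, 8.59 and 8.49 at 0 hr, and Col4a2 likewise (both 1.99-fold). Of 22 matrix proteases and their inhibitors, 9 fell, among them the plasminogen activators Plau (−1.31) and Plat (−1.28) and the metalloproteases Mmp23 (−1.55) and Mmp3 (−1.53, below the receptor level on average). The inhibitor Timp1 rose alone (1.25), and Timp3 fell by 0.83.

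None of 34 interferon-stimulated genes rose and 13 fell (median −0.44). Trim30d, a tripartite motif gene, had 6.42, 5.99 and 6.07 at 20 hr and 8.31, 8.46 and 8.67 at 0 hr (4.99-fold). Xaf1 fell by 1.36 and Parp14 by 1.19. Ifit3, an antiviral gene, fell by 1.81, but its 20 hr arrays were far apart at 6.55, 7.17 and 8.01, against 9.12, 9.11 and 8.93 at 0 hr. The interferon element (TTTC, any pair of bases, TTTC) stood in 29% of 31 promoters of the list, against 2.98% of all and 4.76% of those of genes called lower, and Ifit3 shows it 2 times (capitals) in the 170 bases before its start.
Ifit3, chr19:34583359-34583528, plus strand: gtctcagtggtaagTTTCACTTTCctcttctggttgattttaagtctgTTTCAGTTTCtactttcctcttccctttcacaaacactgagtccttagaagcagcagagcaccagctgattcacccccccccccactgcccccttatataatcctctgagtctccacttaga

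Of 28 chemokines and cytokines, 4 rose and 3 fell (median 0.04). Il6 read 8.02, 7.97 and 8.08 at 20 hr and 5.67, 5.36 and 6.26 at 0 hr (4.80-fold) and was lower again at 40 hr than at 20 hr (−1.05). The chemoattractant Ccl2 fell by 1.40 and the macrophage growth factor Csf1 by 1.26. Of 20 complement and acute phase genes, 6 rose and 5 fell. The rises were of acute phase genes, such as haptoglobin (Hp), with 8.76, 8.47 and 8.80 at 20 hr and 6.42, 6.44 and 5.94 at 0 hr (5.33-fold), and Orm1 (1.45), besides C4b. The falls were those of the complement proteases C1ra, C1rb and C1s1, their inhibitor Serping1 (−0.62 to −0.76) and ceruloplasmin (Cp, −1.10), of which 3 were left without WT 0 hr replicate 3.

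Further lists held calls in both directions or few calls, to be read against the 4.86% of all genes called higher and 3.89% called lower. Most members of these lists were above the receptor level, where calls were more frequent (14.4% in either direction, against 8.75% of all genes). Of 17 clock genes, 3 rose and 5 fell (median −0.33), with the repressor Nfil3 at 1.68 and Per1 at 0.87, against Per3 at −1.30, Tef at −1.17 and Nr1d2 at −1.04. Of 24 NRF2 and antioxidant genes, Gclc (1.83), which limits glutathione synthesis, Sod2 (1.65) and Gsr (0.90) rose and 5 fell, Gstm2 (−1.05) and Gstm1 (−0.99) among them. Of 27 FoxO and quiescence genes, 2 rose and 5 fell (median 0.00), with the repressor Bcl6 at 1.6 and Gas2, a growth arrest gene, at −1.44, and 3 fell with each array centred on its median. Of 22 p53 targets none rose and 3 fell, led by Btg2 (−1.40). Of 29 genes of the unfolded protein response and of ATF4, 3 rose and 5 fell, with Hyou1 at 1.01 and Ddit3 at −0.88, and 3 fell without WT 20 hr replicate 3 or with that centring. Of 51 genes of Wnt, TGF-β, BMP and Notch signalling, 5 rose (9.8%), such as the BMP regulator Bmper (1.15), and 4 fell (7.84%), such as Tgfb3 (−1.18) and the Notch ligand Jag1 (−1.01). Of 26 factors that restrain adipogenesis, 5 fell, Snai2 (−0.93) and Klf2 (−0.81) among them, and Id2 rose (0.77).

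Of 15 kinesin-1 chains, CK2 subunits and sirtuins, only Kif5c was called. It read 6.89, 6.79 and 6.64 at 20 hr and 7.53, 7.20 and 7.5 at 0 hr (log2 fold change −0.64, adjusted p = 4.17e-05). Its fold fell just below the limit (−0.58) without WT 0 hr replicate 1 or without WT 20 hr replicate 3. Kif5b, Csnk2a1 and Csnk2a2 had 0.11, 0.10 and 0.07, and Sirt6 had −0.05.

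By gene type, protein-coding genes were called higher more often than lower (5.46% and 4.01% of 18964), while the reverse held for long non-coding RNAs (0.831% and 2.65% of 1926). Only 457 of the long non-coding RNAs were above the receptor level, against 10982 of the protein-coding genes. The part of signal level in this reversal was not tested. Of 478 microRNA genes, 2 were called higher (0.418%) and 29 lower (6.07%). MicroRNAs are short RNAs that pair with messenger RNAs through their seed, bases 2 to 8, and repress them. The clusters hold probes for the hairpin region of the gene and do not measure the mature microRNA, and 12 of the 29 were above the receptor level, so many of these values are dim. These microRNAs were singled out after their values were seen. Of the 29, 24 were also called lower in SIRT6 KD cells, as were 86.1% of all 862 genes called lower in WT cells.

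Of 11 let-7 genes, 4 fell and none rose. The let-7 family is known to restrain cell cycle genes. Mirlet7a-1 had 7.43, 7.53 and 7.49 at 20 hr and 8.29, 8.39 and 8.29 at 0 hr, and Mirlet7f-1, its neighbour on chromosome 13, had −0.79. Mirlet7c-1 fell by 1.30 and its neighbour on chromosome 16, Mir99a, by 1.23. Mirlet7a-2 fell by 0.74 and Mir125b-1, on the same chromosome 9, by 0.98. Other pairs were Mir143 (−1.04) with Mir145a (−2.13), and Mir181a-2 (−0.87) with Mir181b-2 (−0.84). Neighbours such as these can lie in one primary transcript, so their values are not separate observations. Mirlet7c-1, Mir125b-1 and Mir145a were below the receptor level on every WT array at both 0 hr and 20 hr. The mature forms of the let-7, miR-181, miR-99 and miR-125 genes are shown, from the RefSeq table, with the seed in capitals, so that shared and separate seeds can be seen.
let-7a-5p: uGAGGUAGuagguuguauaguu
let-7c-5p: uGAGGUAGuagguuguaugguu
let-7f-5p: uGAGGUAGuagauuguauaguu
miR-181a-5p: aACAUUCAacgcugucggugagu
miR-181b-5p: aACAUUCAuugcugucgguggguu
miR-99a-5p: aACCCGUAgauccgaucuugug
miR-125b-5p: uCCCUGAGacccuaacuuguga

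The 3 let-7 forms share the seed GAGGUAG and the miR-181 forms the seed ACAUUCA, while miR-99a and miR-125b have seeds of their own. At 40 hr against 20 hr, Mirlet7c-1 (0.96) and Mir99a (1.21) were higher again and the other let-7 genes were not called. Mirlet7c-1 read 5.08, 6.26 and 6.19 on the WT 40 hr arrays, all below the receptor level and the first near its 20 hr mean of 4.88.

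SIRT6 KD cells gave an induction response of the same kind, on arrays that share none with the WT comparison. In SIRT6 KD cells 1864 genes (8.4%) were called at 20 hr against 0 hr, 896 higher (4.04%) and 968 lower (4.36%). The 800 genes called higher in both were 89.3% of the SIRT6 KD and 74.2% of the WT calls, and the 742 called lower in both were 76.7% and 86.1%. No gene was called in opposite directions. The 1078 genes called higher in WT cells had a median log2 fold change of 0.76 in SIRT6 KD and 0.82 in WT cells, and the 862 called lower −0.85 and −0.80. All the first and 861 of the second had the same sign in SIRT6 KD cells, the exception being AF366264 (0.09 in SIRT6 KD and −0.73 in WT cells).

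**Figure D5:**
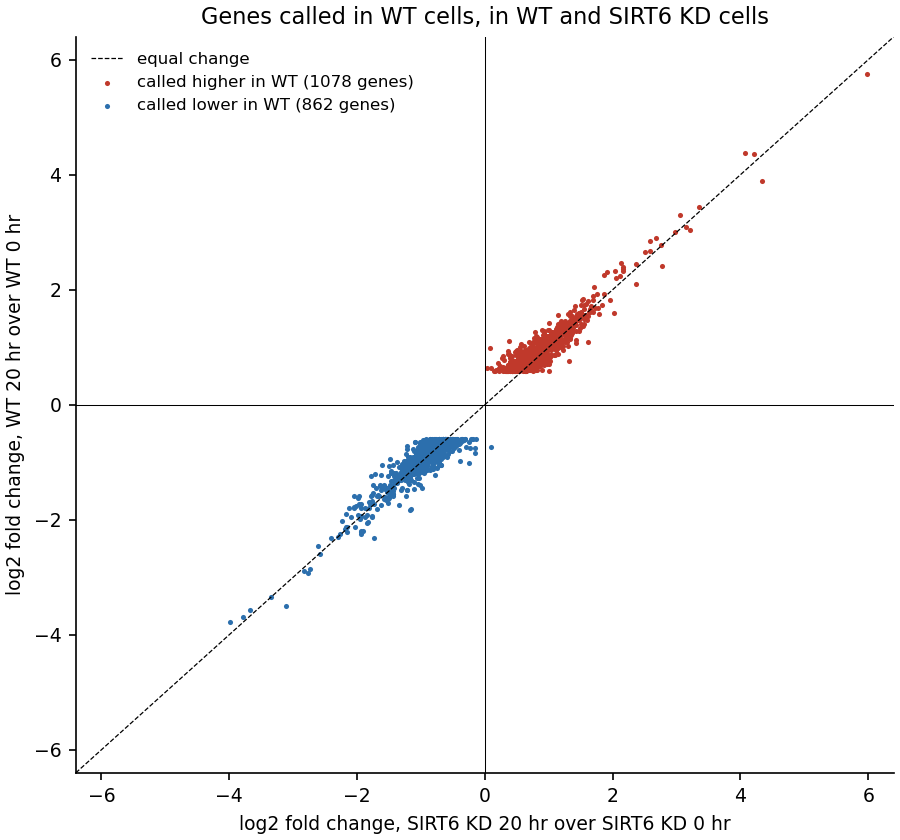
Log2 fold change of 20 hr over 0 hr in SIRT6 KD cells (horizontal axis) and WT cells (vertical axis) for the 1940 genes called in WT cells, each point 1 gene, red called higher and blue called lower in WT, with the dashed line at equal change. The points follow the line, and 1939 of them lie in the quadrants of equal sign.

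No list was tested for a difference between the genotypes. The mitosis list had a median of 1.18 in SIRT6 KD and 1.20 in WT cells, the replication list 0.87 and 0.94, the ribosome biogenesis list 0.61 and 0.66, and the interferon list −0.50 and −0.44. The medians lay further apart for the cyclic AMP list (0.20 in SIRT6 KD and 0.41 in WT cells), the cholesterol list (−0.59 and −0.39) and the p53 list (−0.05 and −0.15). Pip rose by 5.98 in SIRT6 KD and 5.75 in WT cells. The cholesterol list had 10 genes lower in SIRT6 KD and 6 in WT cells. The difference between the genotypes in the change from 0 hr to 20 hr was tested directly, and limma called 0 of 22180 genes at an adjusted p under 0.05, as did the unmoderated test. Without adjustment 1081 genes (4.87%) had p under 0.05. A difference that misses the threshold does not show that the responses were equal. Kif5c had −0.25 in SIRT6 KD and −0.64 in WT cells (difference 0.39, unadjusted p = 0.0108, adjusted p = 0.936), and Trim30d −1.74 and −2.32 (difference 0.58, unadjusted p = 0.00341, adjusted p = 0.913).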

How the data were processed

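RNA of 18 samples was hybridised to Mouse Gene 2.0 ST arrays, and the authors deposited log2 signals per transcript cluster, made by RMA (background correction, quantile normalisation and summary over probes). The software and its version are not given in the sources used here. Probe level data were not used, so the precision is limited by the number of arrays. Of 41345 clusters, 16004 had no gene symbol and 1820 several, and both were left out. The remaining 23521 gave 22180 genes, of which 1082 had more than 1 cluster and were represented by the one with the highest mean. Columns of values that belong to no sample numbered 0.

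A linear model with a mean for each of the 6 groups was fitted to all 18 arrays in limma 3.58.1 (R 4.3.3), with 12 residual and 6.37 prior degrees of freedom, and p values were adjusted over all genes by Benjamini-Hochberg. The methods name a one-way analysis of variance, which was run as an alternative. The scripts were tested on simulated data. Alternatives covered the moderation, variance model, scaling, filter, thresholds, array weights, replicate block and leaving out each array.

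The members and gene lists were chosen with earlier results of these data known. Named genes are the 15 largest rises and falls, up to 4 called members per direction of each list, the genes the study followed, and further list members picked for their role with their values known. Of 915 genes in 35 lists, 838 had a row. Promoters and mature microRNAs came from RefSeq tables (GRCm38.p6), matching 16990 of the genes, and the printed promoters and microRNAs were chosen after values and matches were seen.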

Additional observations from a re-analysis of the deposited data

How the results depend on the processing

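The counts of calls depended mainly on the fold limit. Adjusted p alone gave 5704 genes in WT 20 hr against WT 0 hr (3151 higher, 2553 lower), 2000 in WT 40 hr against WT 20 hr and 5627 in SIRT6 KD 20 hr against SIRT6 KD 0 hr. A fold above 2 gave 596 (336 higher, 260 lower), 251 and 564. For SIRT6 KD minus WT in the change at 20 hr, no gene was called, and the study's rule of a fold above 1.5 with an unadjusted p gave 54. The share of calls that were higher in WT cells at 20 hr was 55.6%, with 63.4% after centring each array on its median and 48.9% under cyclic loess. Leaving out each array in turn gave 1931 to 2010 genes in WT 20 hr against WT 0 hr (1017 to 1171 higher, 821 to 944 lower), 0 for SIRT6 KD minus WT, 689 to 712 in WT 40 hr against WT 20 hr, and 1844 to 2080 in SIRT6 KD 20 hr against SIRT6 KD 0 hr. Same-numbered arrays did not deviate together (correlations −0.03 to 0.10 in WT and −0.21 to 0.19 in SIRT6 KD cells), so the numbers were not taken as pairs. With a replicate block the counts were 1940, 0, 709 and 1864, of which 1939 of the first were also called without it. Of 812 values for named genes under alternatives, 806 stayed on their side of the threshold and 6 (of Kif5c and Ccna2) lost the call. Among genes called in the main fit 0 values changed sign, and changes of sign were not counted for the other genes. Of 1120 counts over lists, 19 moved by more than 1.5 times. With 3 arrays a group, the median standard error of a log2 fold change was 0.102, and genes below the receptor level can show only part of a change.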
